A study of Mus musculus with 212 samples.

Results

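Single cells labelled E9.5 were compared with single cells labelled E8.5, where E gives the embryonic day in mouse development. Members were taken by the cell names written in the deposited table of stages E7.5 to E10.5: 6 cells were named E9.5 and 6 were named E8.5, together 12 of the 24 cells of that table and of 200 cells in the series. After each cell had been sorted into its own well, lysed and reverse transcribed, 42 TaqMan assays for 33 genes were read by quantitative PCR on a microfluidic chip. The labels give the species as Mus musculus and the cell type as cardiac, and state no strain, genotype, sex or treatment for either stage. The labels' titles and source names disagree with the table: they call these cells late-stage derivatives of ES (embryonic stem) cells from embryoid bodies, while the table names embryo stages. The stage names of the table are used here. No animal or litter is named, so each stage counts as 1 sample, and all spreads below are spreads between 6 cells. No test was possible, and no p-value or standard error is given.

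The mouse heart begins as a tube of contracting cells, lined inside by endocardial (endothelial) cells, that loops and forms chambers over the following days. Cardiac transcription factors such as Nkx2.5, Gata4, Mef2C, Tbx5 and Hand1/Hand2 act together on the genes of the contractile apparatus. Early cardiomyocytes also make proteins better known from smooth muscle, among them Sm22A (transgelin) and calponin 1, and they exchange slow or fetal forms of contractile proteins for later ones as the heart matures. The ventricular chambers of a rodent embryo express mainly the heavy chain encoded by Myh7, and after birth mainly the one encoded by Myh6.

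Deposited values are quantification cycles (Ct), the PCR cycle at which an assay becomes positive, with 25 standing for no signal. Levels were computed as 25 minus Ct, that is, in cycles above this limit, so 1 cycle stands for a factor of 2 in template at full PCR efficiency, and 0 means not detected. Levels of different assays are not compared as amounts, because each assay has its own efficiency. An assay is called higher or lower where the mean over cells differed by at least 1 cycle between the stages. The negative control column gave signal on 0 assays and the positive control on all 42, between 6.88 and 18.83 cycles. None of the 12 cells recurs in another table.

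Of the 6 E8.5 cells, 2 stood apart from the other 10 cells of the comparison, and this bears on most results. Cdh5, the adhesion molecule that holds endothelial cells together (VE-cadherin), read 12.12 and 11.43 cycles in E8.5 cells 1 and 2 and was not detected in any other cell. Pecam1, another endothelial adhesion molecule, read 8.05 and 6.75 in the same cells and 4.02 in E8.5 cell 6, and Flk-1 (Kdr), the main receptor for vascular endothelial growth factor, read 10.95 and 9.90. These 2 cells detected 2 and 1 of the 10 cardiomyocyte assays, with summed levels of 8.57 and 2.49 cycles. All 6 E9.5 cells detected all 10 of those assays, summed to 97.97 to 108.53 cycles, and the other 4 E8.5 cells 9 or 10 of them, summed to 71.87 to 104.30 cycles. Set against the mean profiles of the series' reference cell types over the 41 assays other than Actb, all 6 E9.5 cells and 4 of the E8.5 cells correlated best with the cardiomyocyte type (Pearson r of 0.66 to 0.75 at E9.5 and 0.60 to 0.73 at E8.5). E8.5 cells 1 and 2 correlated best with the endothelial type, at 0.71 and 0.89, and at -0.18 and -0.27 with cardiomyocytes. These correlations are descriptions over assays that all cells share. All 6 sampled E9.5 cells thus had the cardiomyocyte pattern, whereas the sampled E8.5 cells held both cardiomyocyte-pattern and endothelial-pattern cells. Differences that depend on these cells are given with all 6 E8.5 cells and with the 4 that lack Cdh5 signal, a choice made after the data were seen.

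**Figure D1:**
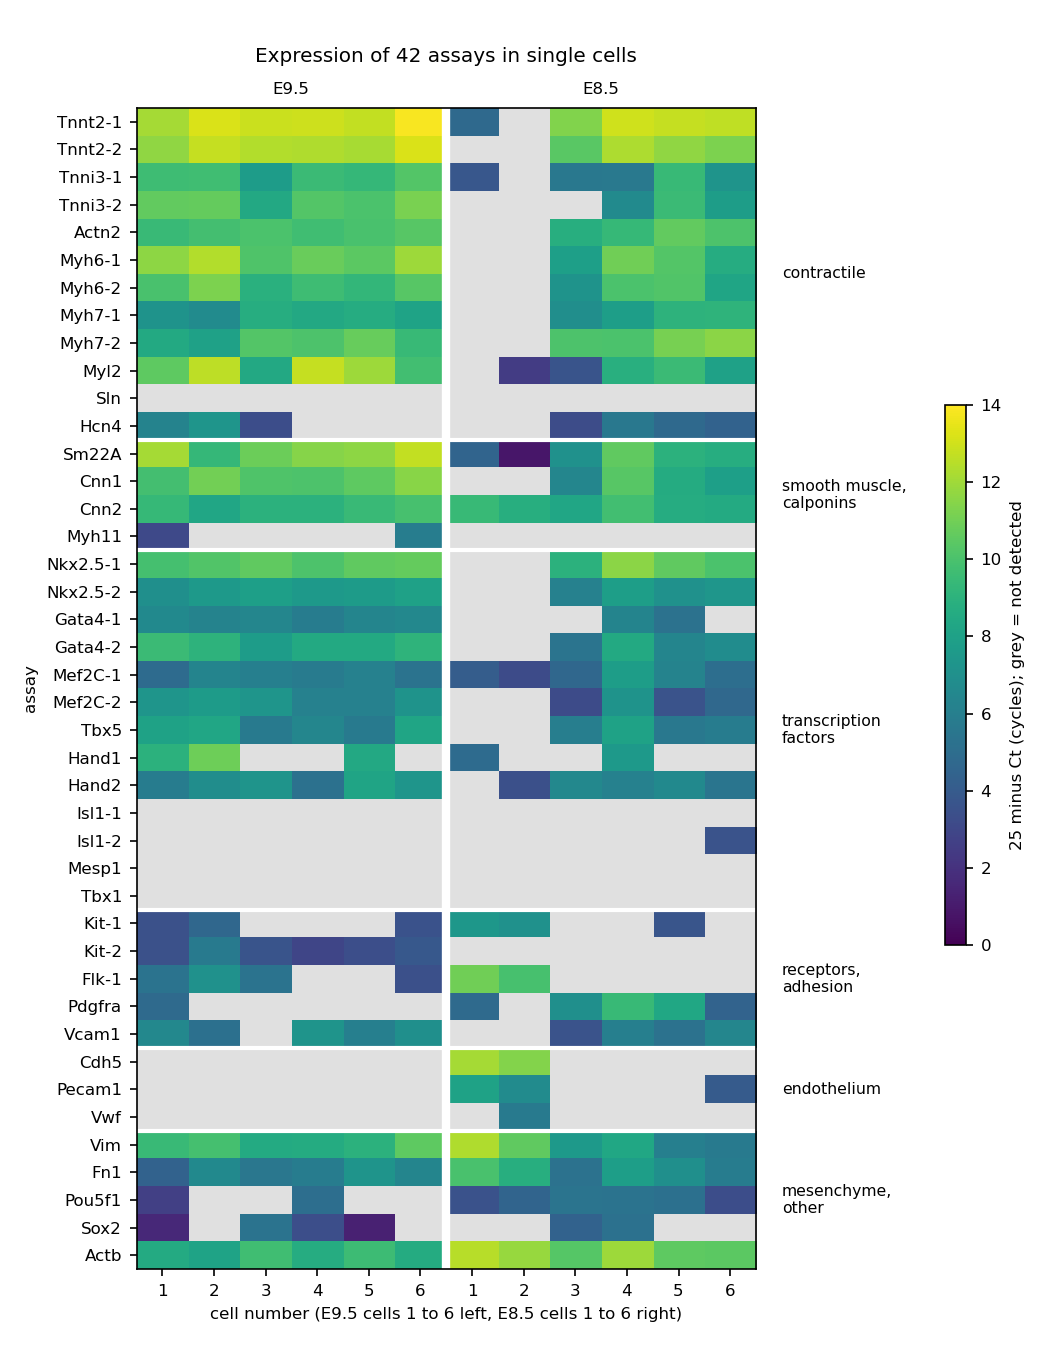
Expression of the 42 assays (rows, grouped by role) in the 6 E9.5 cells (left) and 6 E8.5 cells (right), as 25 minus Ct in cycles on the colour scale, with undetected values in grey. E8.5 cells 1 and 2 show Cdh5 and Pecam1 and hardly any contractile assay, whereas the other E8.5 cells resemble the E9.5 cells in which assays they detect.

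With all 6 cells of each stage, 23 of the 42 assays (54.8%) were higher at E9.5 and 7 (16.7%) lower, and the median difference over all assays was 1.93 cycles. With the 4 E8.5 cells without Cdh5 signal, 16 assays (38.1%) were higher and 6 (14.3%) lower, and the median difference was 0.43 cycles. Actb, the beta-actin housekeeping assay, was lower at E9.5, so centring each cell on it moved the split to 28 higher and 4 lower with all cells, and to 28 and 2 with the 4 cells. Centring on each cell's median detected assay gave 22 higher and 8 lower with all cells, and 13 and 11 with the 4 cells. How many of the 42 assays were higher therefore depended on the scale and on the cells. Under all 6 combinations of cell set and scale, 11 assays were higher at E9.5: Tnni3-1, Tnni3-2, Myl2, Cnn1, Sm22A, Myh11, Gata4-1, Gata4-2, Mef2C-2, Hand1 and Kit-2. Pdgfra and Pou5f1 were lower under all 6. In the centred values, undetected readings were set to the lowest centred value among the cells used. Centred sizes of assays with undetected cells therefore depend on this fill, and calls or sign changes resting on them can too. Kit-2, at 0 in every E8.5 cell, differed by 5.95 cycles on Actb with all cells and by 3.24 with the 4.

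**Figure D2:**
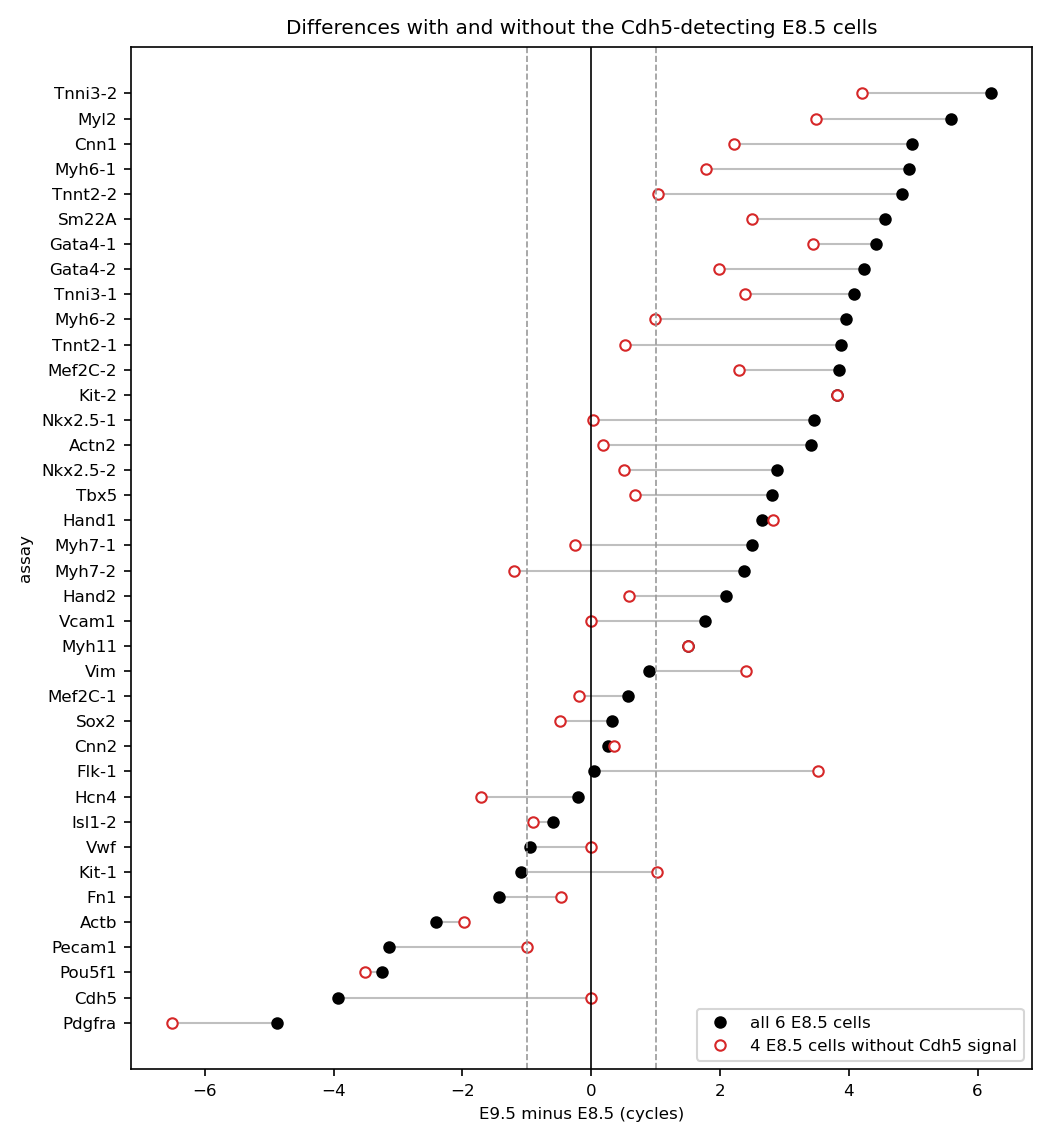
Difference of means, E9.5 minus E8.5 in cycles, for the 38 assays detected in at least 1 cell, with all 6 E8.5 cells (filled) and with the 4 E8.5 cells that lack Cdh5 signal (open). Dashed lines mark 1 cycle in each direction. Tnni3-2, Myl2 and Kit-2 stay beyond the line on the right, while Nkx2.5-1 and Actn2 move close to 0.

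Contractile genes held 4 of the 5 highest differences with all cells, and among them the troponin I gene of the adult heart, Tnni3, led. Tnni3-2 read 10.64, 10.72, 8.43, 10.25, 10.06 and 11.18 cycles in the 6 E9.5 cells, against 0, 0, 0, 6.71, 9.53 and 7.79 in E8.5 cells 1 to 6. Only E8.5 cell 5 reached into the E9.5 range. Detection was 6 of 6 E9.5 cells (exact Clopper-Pearson 95% interval 54.1 to 100%) and 3 of 6 E8.5 cells (11.8 to 88.2%). These intervals cover counting error over cells only, and with 6 cells even 6 against 0 leaves 54.1 to 100% beside 0 to 45.9%. The mean difference of 6.21 cycles was the highest of the 42 assays, with 4.56 cycles from detection and 1.65 from level. Without the Cdh5-detecting cells the difference was 4.21 cycles. The second assay of the gene, Tnni3-1, was higher by 4.08 cycles with all cells and by 2.38 with the 4.

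Myl2, the regulatory light chain of ventricular myosin, was the next assay in order. Its levels were 10.52, 12.63, 8.45, 12.74, 11.97 and 9.74 cycles at E9.5, against 0, 2.49, 3.66, 8.85, 9.57 and 7.99 at E8.5. The difference was 5.58 cycles with all cells and 3.49 with the 4 cells. E8.5 cells 4 and 5 read above E9.5 cell 3 and below every other E9.5 cell. Of the 5.58 cycles, 4.12 came from the level in detecting cells.

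The other contractile assays differed mainly through the 2 cells that lack them. Tnnt2, cardiac troponin T, which binds the troponin complex to the thin filament, gave 12.12, 13.19, 12.88, 12.95, 12.70 and 13.89 cycles at E9.5 with Tnnt2-1, against 4.77, 0, 11.34, 12.97, 12.80 and 12.63 at E8.5. Its difference shrank to 0.52 cycles from 3.87 when the 2 Cdh5-detecting cells were left out, and that of Tnnt2-2 to 1.03 from 4.83. Actn2, the alpha-actinin of the sarcomere's Z-disc, behaved likewise, with means of 9.90 ± 0.31 cycles at E9.5 and 9.72 ± 0.81 in the 4 E8.5 cells (SD, n = 6 and 4), and 6.48 ± 5.06 over all 6. Centring the 10 cells on their median detected assay turned Tnnt2-1 and Actn2 to differences of -0.46 and -0.80. All 10 cardiomyocyte assays were higher with all E8.5 cells (54.8% of all 42 assays were), with a median difference of 4.02 cycles against 1.93 over all 42. With the 4 cells, 5 were higher (38.1% of all assays were), 1 was lower and 4 lay within 1 cycle. The median was then 1.01 against 0.43 over all assays. Myh6, Myh7, Tnni3 and Tnnt2 enter this list with 2 assays each.

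**Figure D3:**
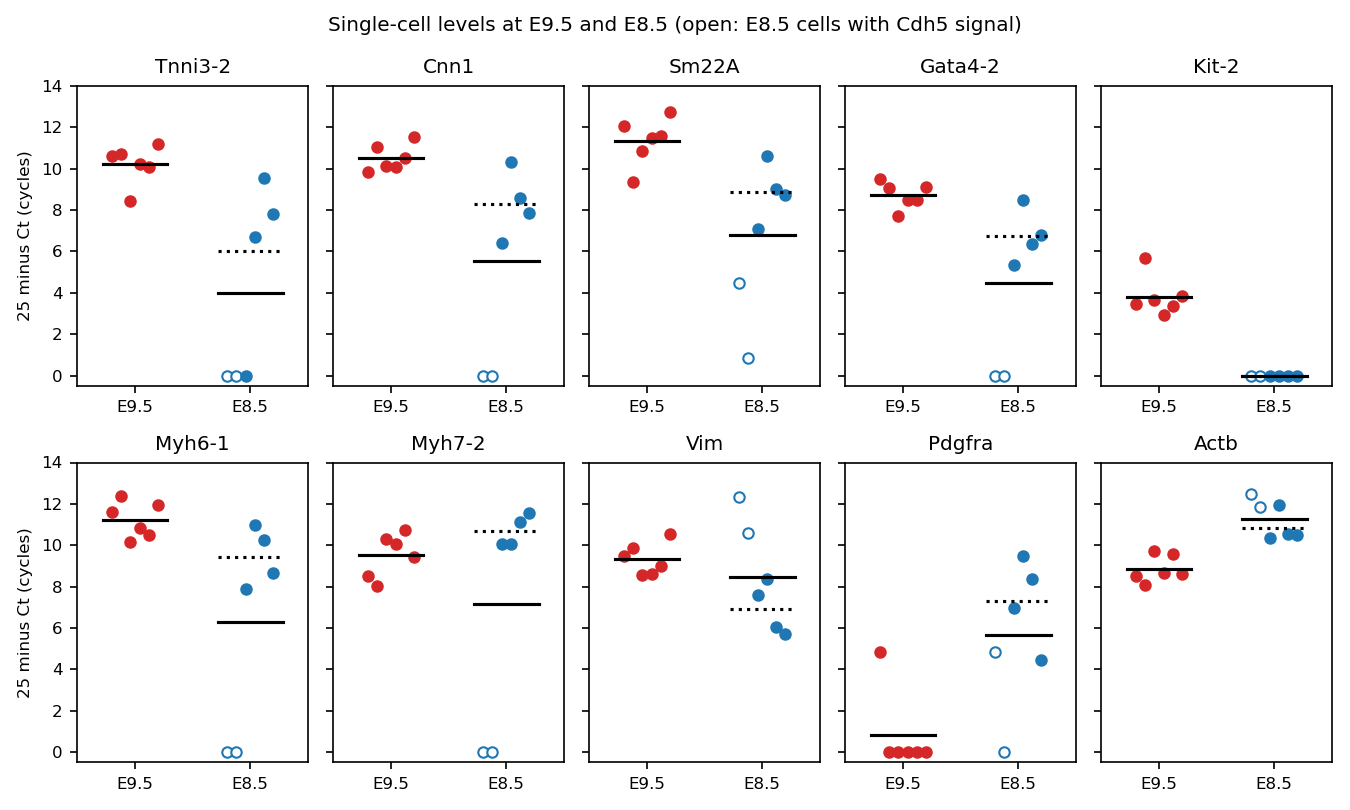
Levels of 10 assays in each cell (25 minus Ct, cycles), E9.5 in red on the left and E8.5 in blue on the right of each panel. Open circles are the E8.5 cells with Cdh5 signal, solid bars are means over 6 cells and dotted bars means over the other 4 E8.5 cells. Kit-2 and Actb are the assays whose stages do not overlap with all cells, and Vim separates once the open circles are set aside.

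One assay of each myosin heavy chain gene differed in opposite directions once the endothelial-pattern cells were left out. Myh6 encodes the fast alpha heavy chain and Myh7 the slow beta heavy chain, and the genes are neighbours on chromosome 14. Myh6-1 read 11.62, 12.36, 10.15, 10.82, 10.49 and 11.94 cycles at E9.5, against 0, 0, 7.91, 10.98, 10.25 and 8.64 at E8.5. Myh7-2 read 8.53, 8.02, 10.28, 10.07, 10.75 and 9.45 cycles at E9.5, against 0, 0, 10.07, 10.05, 11.13 and 11.58 at E8.5. Among the cells with a cardiomyocyte pattern, Myh6-1 was thus 1.78 cycles higher and Myh7-2 was 1.19 cycles lower at E9.5. Centring these cells on Actb gave 3.75 for Myh6-1 and 0.78 for Myh7-2, both higher. Centring them on the median detected assay gave 0.80 for Myh6-1, under the 1-cycle call, and -2.17 for Myh7-2. The other assay of each gene stayed within 1 cycle in these cells without centring, at 0.99 for Myh6-2 and -0.25 for Myh7-1. With all cells both Myh6-1 and Myh7-2 were higher (4.93 and 2.38 cycles). With all cells, leaving out E8.5 cell 1 or E8.5 cell 2 alone took the Myh7-2 difference to 0.95. The difference Myh6-1 minus Myh7-2 within each cell, which a change in the amount of RNA leaves alone, averaged 1.71 ± 1.88 cycles in E9.5 cells and -1.26 ± 1.69 in the 4 E8.5 cells (SD, n = 6 and 4). It ran from -0.26 to 4.34 at E9.5 and from -2.94 to 0.93 at E8.5, so the stages overlapped. With the other assays of both genes, Myh6-2 minus Myh7-1 averaged 1.91 ± 1.60 at E9.5 and 0.67 ± 1.30 at E8.5. E9.5 cells 1 and 2 had the highest Myh6-1 minus Myh7-2 difference, with the lowest Myh7-2 of the 10 cells.

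The 300 bases around a RefSeq transcript start of each of 3 contractile genes, 250 before and 50 after, are shown. They were chosen because Myh6-1 and Myh7-2 differed in opposite directions among the cardiomyocyte-pattern cells before centring, and Tnni3-2 differed most. They are from RefSeq on GRCm38.p6, 5′ to 3′ on the gene's strand (the minus strand for all 3), and capitals mark the letters CATTCC on either strand, the core bound by TEAD factors.
Myh6, chr14:54966558-54966857: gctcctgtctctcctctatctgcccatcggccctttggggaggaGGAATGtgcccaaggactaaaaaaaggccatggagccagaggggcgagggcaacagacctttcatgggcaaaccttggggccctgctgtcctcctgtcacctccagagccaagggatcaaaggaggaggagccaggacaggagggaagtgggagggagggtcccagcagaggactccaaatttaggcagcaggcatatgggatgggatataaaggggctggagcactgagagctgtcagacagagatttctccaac
Myh7, chr14:54994577-54994876: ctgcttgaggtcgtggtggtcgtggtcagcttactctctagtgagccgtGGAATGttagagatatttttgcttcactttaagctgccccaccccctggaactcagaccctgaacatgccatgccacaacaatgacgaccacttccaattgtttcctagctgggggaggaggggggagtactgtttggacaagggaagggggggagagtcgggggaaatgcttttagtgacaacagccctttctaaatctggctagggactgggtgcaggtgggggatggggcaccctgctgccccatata
Tnni3, chr7:4522479-4522778: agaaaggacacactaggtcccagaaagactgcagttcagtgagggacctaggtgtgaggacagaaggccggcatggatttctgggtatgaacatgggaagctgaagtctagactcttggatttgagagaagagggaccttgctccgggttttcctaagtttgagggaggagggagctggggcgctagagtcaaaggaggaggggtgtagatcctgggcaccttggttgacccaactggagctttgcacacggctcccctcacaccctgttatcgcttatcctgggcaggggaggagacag
The annotated 5′ end of the Myh6 gene, chr14:54968017, lies upstream of its window. That of Tnni3, chr7:4522718, lies in its window but upstream of the transcript start used. The letters occurred once in each of the first 2 windows and not in that of Tnni3. A second RefSeq window of Myh7, chr14:54994500-54994799, which overlaps the one shown, does not hold them. Of 32851 RefSeq promoter windows of the same length, 14.7% hold them. The GATA letters AGATAA (11.2% of windows) and TGATAA (9.05%), the E-box CACGTG (7.15%) and the CArG box (1.63%), which do not overlap CATTCC, were searched on both strands and are in none of the 3 windows. A match is a description of the letters in the window and nothing more.

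Smooth muscle genes were higher at E9.5 in cells that also carried the cardiomyocyte pattern. Cnn1, calponin 1, an actin-binding protein of contractile smooth muscle, read 9.84, 11.03, 10.13, 10.10, 10.501 and 11.53 cycles at E9.5, against 0, 0, 6.43, 10.34, 8.60 and 7.88 at E8.5. E8.5 cell 4 alone reached the E9.5 range. The difference was 4.98 cycles with all cells and 2.21 with the 4 cells. Sm22A, transgelin, which binds actin filaments, was detected in all 12 cells, so its difference was one of level. It read 12.09, 9.34, 10.84, 11.48, 11.59 and 12.74 cycles at E9.5, against 4.49, 0.86, 7.09, 10.60, 9.0 and 8.73 at E8.5, a difference of 4.56 cycles with all cells and 2.49 with the 4. Again E8.5 cell 4 was the E8.5 cell that overlapped. Myh11, the myosin heavy chain of mature smooth muscle and the most restricted of the 3, was detected in E9.5 cells 1 and 6 only (3.12 and 5.93 cycles) and in 0 of 6 E8.5 cells. Its difference of 1.51 cycles rested on these cells: it was 0.62 without E9.5 cell 6, 0.84 with a detection limit stricter by 2 cycles and 0 as a difference of medians. The E9.5 cells with Myh11 were also those with the highest Sm22A. Cnn2, the calponin found in many cell types, differed by 0.26 cycles with all cells and by 0.35 with the 4, with 9.17 ± 0.55 at E9.5 and 8.92 ± 0.57 at E8.5 (SD, n = 6 each). Cnn1 minus Cnn2 within cells averaged 1.35 ± 0.78 cycles at E9.5 and -0.51 ± 1.03 in the 4 E8.5 cells (SD, n = 6 and 4). For scale, the series' reference cardiomyocytes averaged 0 cycles on Cnn1 and 0.86 on Sm22A, and its reference smooth muscle cells 10.08 and 11.91, with 11.75 on Myh11. The E9.5 cells thus stood near the smooth muscle cells on Cnn1 and Sm22A and below them on Myh11. All 3 smooth muscle assays were higher with either cell set (54.8% and 38.1% of all assays were).

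Cnn1 followed Tnnt2-1 closely at E9.5, and varied least against it there among the assays of other genes that were set against Tnnt2-1. Cnn1 minus Tnnt2-1 ran from -2.85 to -2.16 cycles over the E9.5 cells, with a mean of -2.43 ± 0.30 (SD, n = 6), and from -4.91 to -2.63 over the 4 E8.5 cells, with a mean of -4.12 ± 1.04 (SD, n = 4). The spread between cells was thus narrower at E9.5. All 6 E9.5 cells detected Cnn1, Sm22A and Tnnt2-1 together. Of the 5 E8.5 cells with Tnnt2-1 signal, 5 detected Sm22A and 4 detected Cnn1.

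Among the transcription factors, Gata4 and 1 assay of Mef2C stood out. Gata4-2 read 9.52, 9.07, 7.73, 8.51, 8.49 and 9.11 cycles at E9.5, against 0, 0, 5.36, 8.49, 6.35 and 6.79 at E8.5. Gata4 is a zinc finger factor needed for heart tube formation, and its second assay, Gata4-1, was detected in all 6 E9.5 cells and in 2 of 6 E8.5 cells. Leaving out the Cdh5-detecting cells left differences of 1.99 cycles for Gata4-2 and 3.45 for Gata4-1, against 4.24 and 4.42 with all cells. Of the 4 other E8.5 cells, 2 gave no signal with Gata4-1, which read lower than Gata4-2 in every cell that detected both. Mef2C-2, for a MADS-box factor that acts on muscle genes, read 7.30, 7.67, 7.28, 6.17, 6.15 and 7.18 cycles at E9.5, against 0, 0, 3.19, 7.17, 3.56 and 4.72 at E8.5. Mef2C-1 was detected in all 12 cells and averaged 5.76 ± 0.54 at E9.5 and 5.19 ± 1.63 at E8.5 (SD, n = 6 each), a difference of 0.57 cycles that turned to -0.19 with the 4 E8.5 cells. The Mef2C-2 difference was 3.85 cycles with all cells and 2.30 with the 4.

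Nkx2.5 and Tbx5, homeobox and T-box factors of the cardiac programme, differed through the 2 endothelial-pattern cells. Nkx2.5-1 averaged 10.33 ± 0.34 cycles at E9.5 and 10.30 ± 1.07 in the 4 E8.5 cells (SD, n = 6 and 4), a difference of 0.03, against 3.46 with all 6. Tbx5 differed by 0.68 cycles with the 4 cells and by 2.81 with all, and Hand2, a basic helix-loop-helix factor of the heart tube, by 0.59 and 2.09. These 3 genes turned to differences of -0.95, -0.30 and -0.39 when the 10 cells were centred on their median detected assay. Hand1, the related factor of the left ventricle and outer curvature, split the E9.5 cells: cells 1, 2 and 5 read 8.97, 10.92 and 8.44 cycles and the other 3 gave no signal. At E8.5, cells 1 and 4 read 4.89 and 7.57 cycles and 4 cells gave none. The Hand1 difference was 2.64 cycles with all cells, 2.83 with the 4 and 1.41 without E9.5 cell 2. Isl1-1, Tbx1 and Mesp1, factors of earlier or second heart field progenitors, were detected in none of the 12 cells, as was the atrial gene Sln, so an absence there cannot be told from a level under the detection limit. The other Isl1 assay, Isl1-2, read 3.59 cycles in E8.5 cell 6 and 0 in every other cell. Of the 16 assays in the list of progenitor genes and transcription factors, 9 were higher and 2 lower with all cells, and 7 were higher and 1 lower with the 4 cells, shares near those of all 42 assays (54.8% and 38.1% higher).

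Kit, the receptor for stem cell factor, gave opposite pictures with its assays. Kit-2 read 3.47, 5.70, 3.65, 2.91, 3.35 and 3.83 cycles in the 6 E9.5 cells and was detected in 0 of 6 E8.5 cells (0 to 45.9%). This was the clearest separation in detection among the 42 assays, although all 6 readings lay within 5.70 cycles of the detection limit. The Kit-2 difference was 3.82 cycles with either cell set, and 1.82 with a detection limit stricter by 2 cycles. Kit-1 read 3.49, 4.67, 0, 0, 0 and 3.52 cycles at E9.5, against 7.42, 7.08, 0, 0, 3.70 and 0 at E8.5, with its highest values in the endothelial-pattern cells that Kit-2 did not detect. Its difference of -1.09 cycles with all cells became 1.02 with the 4 cells, and -0.21 without E8.5 cell 1 alone. Over the 12 cells, 3 detected both assays, 3 Kit-2 only, 3 Kit-1 only and 3 neither. The statement on Kit therefore holds for the assay Kit-2, not for the gene.

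The receptors encoded beside Kit on chromosome 5, Pdgfra and Flk-1, changed places in the cardiomyocyte-pattern cells. Pdgfra, a platelet-derived growth factor receptor of mesoderm and mesenchyme, read 4.83 cycles in E9.5 cell 1 and 0 in the other 5, against 4.84, 0, 6.95, 9.46, 8.35 and 4.47 in the E8.5 cells. The difference of -4.87 cycles with all cells and -6.50 with the 4 was the lowest of the 42 assays, with 3.88 of the 4.87 cycles coming from detection. Flk-1 read 5.33, 7.07, 5.33, 0, 0 and 3.40 cycles at E9.5. At E8.5 it read 10.95 and 9.90 cycles in the endothelial-pattern cells and 0 in the other 4. Its means differed by 0.05 cycles with all cells, because more cells with a lower level stood against fewer with a higher one, and by 3.52 with the 4 cells. Leaving out 1 cell moved the 0.05 cycles to between -0.66 (without E9.5 cell 2) and 1.54 (without E8.5 cell 1). Of the Tnnt2-1-positive cells, 1 of 6 at E9.5 and 5 of 5 at E8.5 detected Pdgfra, and 4 of 6 at E9.5 and 1 of 5 at E8.5 detected Flk-1. These 5 E8.5 cells include endothelial-pattern cell 1, the only one of them with Flk-1 signal. Of the 4 cardiomyocyte-pattern E8.5 cells, 4 detected Pdgfra and 0 detected Flk-1. Cdh5, Pecam1 and Vwf were at 0 in all 6 E9.5 cells, including the 4 with Flk-1 signal.

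Vim, Fn1 and Vcam1 depended on the endothelial-pattern cells as well. Vim, the intermediate filament protein vimentin, read 9.46, 9.89, 8.54, 8.62, 9.0 and 10.52 cycles at E9.5, against 12.35, 10.59, 7.59, 8.37, 6.03 and 5.73 at E8.5. All 6 E9.5 cells lay above the 4 E8.5 cells without Cdh5 signal and below the 2 with it. The difference was 0.90 cycles with all cells, or -0.25 centred on the median detected assay, and 2.41 with the 4. Fn1, the matrix protein fibronectin, was detected in every cell, at 4.42 to 7.26 cycles at E9.5 and 5.28 to 10.003 at E8.5, and was highest in the endothelial-pattern cells. Its difference of -1.43 cycles became -0.47 with the 4 cells, -0.92 without E8.5 cell 1 alone, and 0.98 with all cells centred on Actb. Vcam1, an adhesion molecule of the developing myocardium, was detected in 5 of 6 E9.5 cells and 4 of 6 E8.5 cells, with a difference of 1.77 cycles that became -0.01 with the 4 cells and 2.84 without E9.5 cell 3.

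Hcn4, the pacemaker channel of the sinus node and of early heart muscle, read 6.29, 7.28 and 3.29 cycles in E9.5 cells 1 to 3 and 0 in cells 4 to 6. All 4 cardiomyocyte-pattern E8.5 cells detected it, at 3.26, 5.60, 4.81 and 4.39 cycles. Its mean difference was -0.20 cycles with all cells and -1.71 with the 4, and centring those 10 cells on Actb turned it to 0.59. Pou5f1 (Oct4), the pluripotency factor, read 2.65 and 5.07 cycles in E9.5 cells 1 and 4 and 0 in the others, against 3.51, 4.53, 5.37, 5.31, 5.19 and 3.32 at E8.5. The E8.5 readings were present in all 6 cells and in both cell patterns, and the mean difference was -3.25 cycles with all cells, -3.51 with the 4 and -1.92 with the stricter limit. On the same assay the series' reference ES cells averaged 8.99 cycles, its cardiomyocytes 5.33 and its cardiac progenitors 5.06. Its smooth muscle cells averaged 7.14 cycles, its fibroblasts 5.63 and its endothelial cells 5.28. What the Pou5f1 readings stand for was not tested. Sox2, the other pluripotency gene, was detected in 4 of 6 E9.5 cells and 2 of 6 E8.5 cells, at up to 5.35 and 5.21 cycles.

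**Figure D4:**
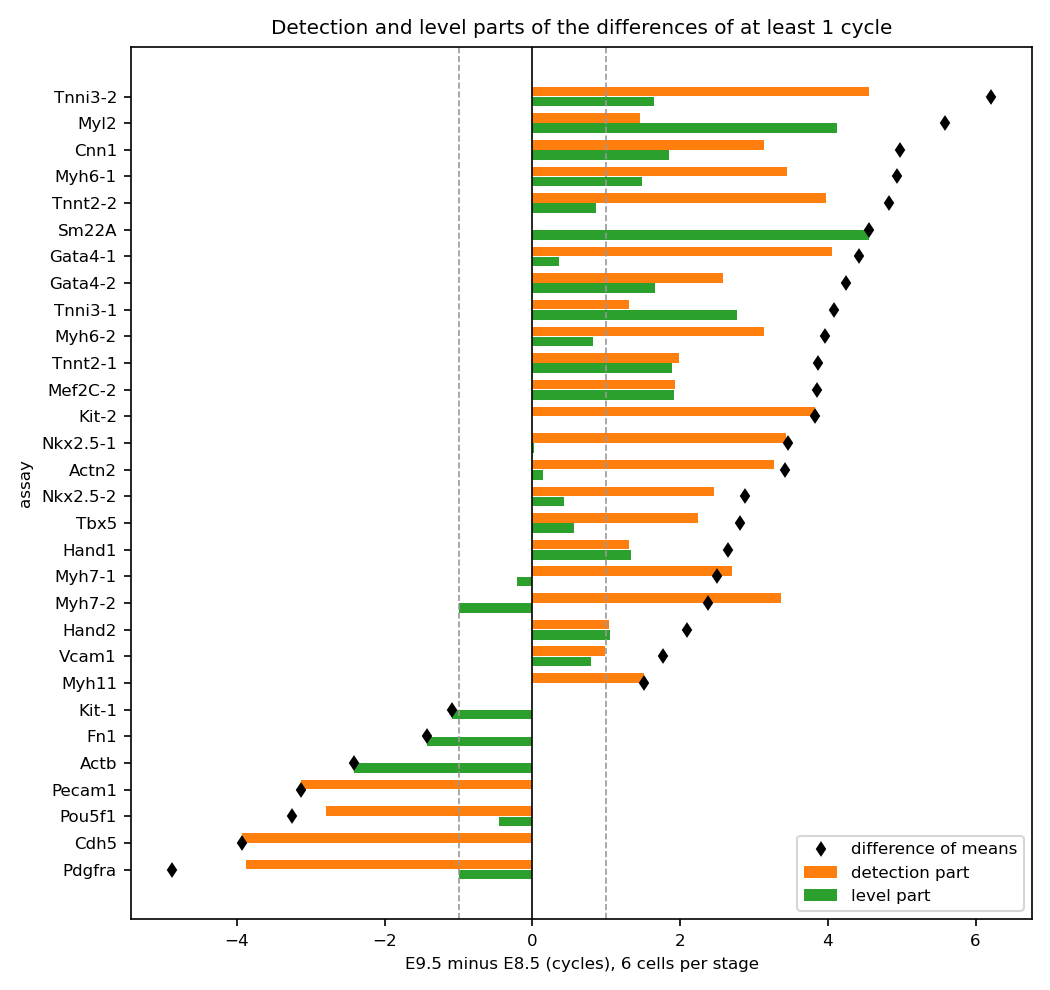
Detection part (orange) and level part (green) of the difference E9.5 minus E8.5, in cycles, for the 30 assays called with all 6 cells of each stage, with the whole difference as a diamond. For Tnni3-2 and Gata4-1 the detection part is the larger, for Sm22A and Myl2 the level part, and for Myh7-2 the parts have opposite signs (3.37 and -0.99).

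Splitting each difference into a part from the number of detecting cells and a part from the level in them gave 18 higher assays led by detection and 5 led by level, and 4 lower assays led by detection and 3 by level. With the 4 E8.5 cells, 7 higher assays were led by detection and 9 by level, and 4 and 2 among the lower ones. Most of the detection part therefore lay in the 2 endothelial-pattern cells. Kit-2, Myh11, Flk-1, Tnni3-2, Gata4-1, Hand1 and Kit-1 were the higher assays led by detection with the 4 cells. Sm22A, Myl2, Cnn1, Gata4-2, Mef2C-2, Tnni3-1, Myh6-1, Tnnt2-2 and Vim were led by level, being detected in all 10 cells.

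For most assays the levels of E9.5 cells lay closer together. The SD between cells was smaller at E9.5 for 33 of the 38 assays detected at all, with a median SD of 0.85 cycles at E9.5 and 3.40 at E8.5. Without the Cdh5-detecting cells it was smaller for 25 of 36, with medians of 0.86 at E9.5 and 1.26 at E8.5. E9.5 cells detected 29.5 ± 2.35 assays (SD, n = 6, range 28 to 34), against 24 ± 7.43 in E8.5 cells (SD, n = 6, range 14 to 30). The 4 E8.5 cells without Cdh5 signal detected 28.75 ± 1.26 (range 27 to 30), a narrower spread than at E9.5. Every E9.5 cell detected 25 assays in common, and every E8.5 cell 7, or 26 among the 4 without Cdh5 signal. The 5 assays with a wider spread at E9.5 were Hand1, Hcn4, Kit-2, Myh11 and Pou5f1. Kit-2 and Myh11 had an SD of 0 at E8.5 because no E8.5 cell detected them. Likewise Cdh5, Pecam1, Vwf and Isl1-2 had an SD of 0 at E9.5 because no E9.5 cell did.

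Actb was lower at E9.5 without overlap. It read 8.53, 8.10, 9.70, 8.67, 9.59 and 8.61 cycles at E9.5, against 12.48, 11.85, 10.33, 11.97, 10.55 and 10.49 at E8.5, a difference of -2.41 cycles with all cells, -1.97 with the 4, and -3.56 relative to each cell's median detected assay. Actb minus Tnnt2-1 within cells averaged -4.09 ± 0.95 cycles at E9.5 and -1.60 ± 0.69 in the 4 E8.5 cells, also without overlap (SD, n = 6 and 4). The median detected level per cell went the other way, at 8.65 ± 0.38 cycles at E9.5 and 7.5 ± 0.78 at E8.5 (SD, n = 6 each), or 7.67 ± 0.93 in the 4 cells. The part of Actb in the other differences was not tested beyond the centred values.

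Where a gene had 2 assays, their difference within a cell could be followed between stages, a comparison added after the values were seen. Of the 9 genes with an assay pair, 6 had at least 3 cells per stage with both assays detected (the 2 endothelial-pattern cells left out), and for 4 of these the stages did not overlap. Mef2C-2 minus Mef2C-1 ran from 0.03 to 2.38 cycles at E9.5 and from -2.70 to -0.34 at E8.5, a shift of 2.49 cycles. Myh7-2 minus Myh7-1 averaged 1.53 ± 0.30 at E9.5 and 2.47 ± 0.49 at E8.5, Myh6-2 minus Myh6-1 averaged -1.33 ± 0.21 and -0.54 ± 0.40, and Tnnt2-2 minus Tnnt2-1 averaged -0.53 ± 0.09 and -1.04 ± 0.29 (SD, n = 6 at E9.5 and 4 at E8.5). The Nkx2.5 and Tnni3 pairs overlapped. A difference between stages of up to about 1 cycle in Myh6, Myh7 or Tnnt2 therefore depended on the assay read, and the assignment of Mef2C to higher or unaltered did so too. What sets the pairs apart was not tested.

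The neighbouring stages gave the following means over all 6 cells of each stage. The mix of cell patterns differed between stages, as E7.5 cells 4 to 6 and E8.5 cells 1 and 2 correlated best with the endothelial type. The part of this mix in the means was not tested. Tnni3-2 averaged 0.71, 4.01, 10.21 and 11.07 cycles at E7.5, E8.5, E9.5 and E10.5, and Cnn1 1.85, 5.54, 10.52 and 9.36. Sm22A averaged 3.82, 6.79, 11.35 and 6.86 cycles and Myl2 0.69, 5.42, 11.01 and 5.38 over the same stages. Over the 4 E8.5 cells without Cdh5 signal, Tnni3-2 averaged 6.01 cycles, Cnn1 8.31, Sm22A 8.85 and Myl2 7.52. The means of Tnni3-2 and Cnn1 thus stayed high at E10.5, and those of Sm22A and Myl2 did not. The Myl2 mean mixed unlike cells, as 3 of 6 E10.5 cells detected it. Of these, cells 2 and 4 read 13.43 and 12.86 cycles, above the highest E9.5 cell at 12.74. E10.5 cell 1 lay below the lowest E9.5 cell at 8.45. Sm22A was detected in 5 of 6 E10.5 cells, at up to 9.79 cycles, against 9.34 to 12.74 at E9.5. Kit-2 was detected in 2, 0, 6 and 3 of 6 cells, Pdgfra in 1, 5, 1 and 1, and Cdh5 in 3, 2, 0 and 0. Actb had means of 11.50, 11.28, 8.87 and 6.70 cycles. Comparisons of neighbouring stages share their cells, so these means are given as values and no relation between the steps is drawn.

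**Figure D5:**
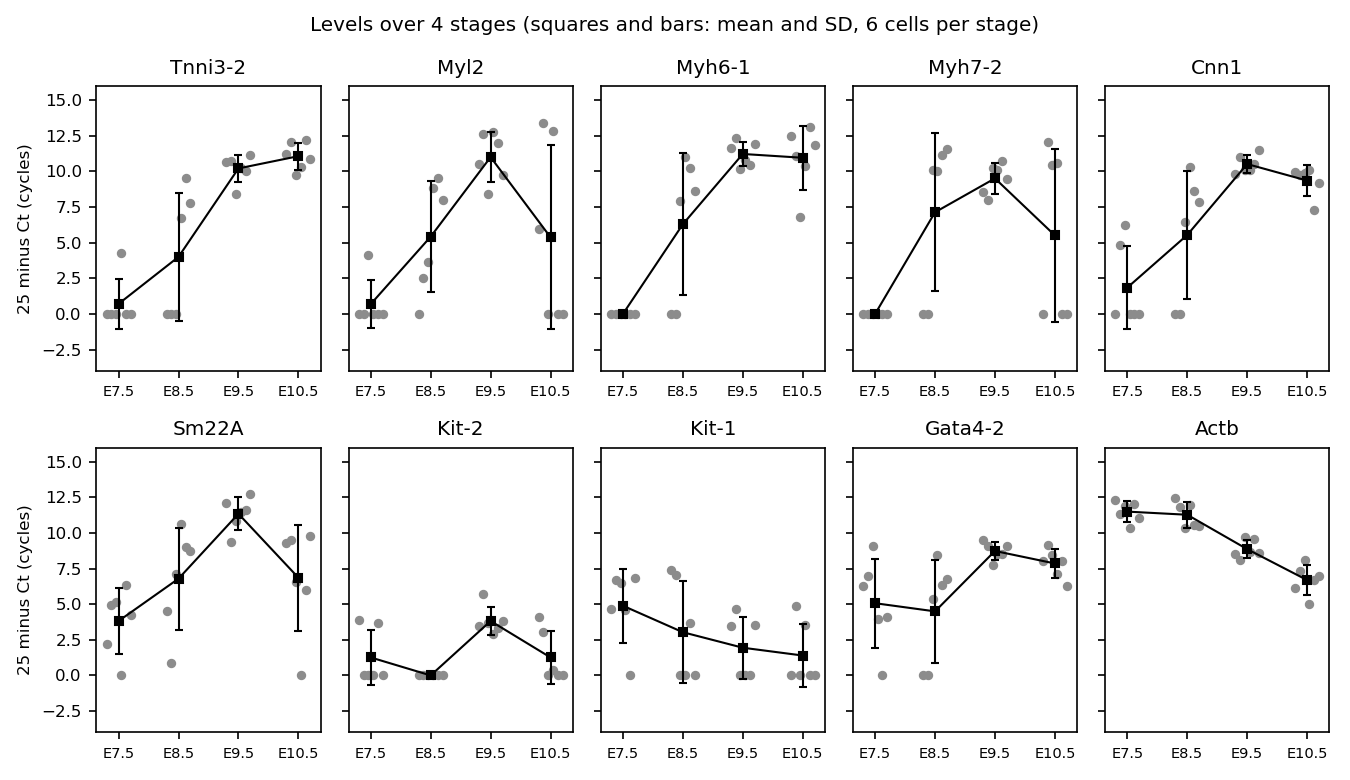
Levels of 10 assays (25 minus Ct, cycles) in single cells (grey points) at E7.5, E8.5, E9.5 and E10.5, with squares and bars for mean and SD over 6 cells per stage. Tnni3-2 and Cnn1 are high at E9.5 and at E10.5, Myl2 and Myh7-2 are high in only some E10.5 cells, and Actb is lowest at E10.5.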

How the data were processed

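Per the labels' protocols, single cells were sorted into wells, reverse transcribed and pre-amplified with the TaqMan assays, and read on microfluidic chips (Fluidigm BioMark). The authors deposited quantification cycles (Ct), a cycle scale and not counts, and the values show 25 for an assay without signal. Which Ct threshold, quality filter or reference-gene correction was used is not given in the sources used here. Control columns were left out of the stages.

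Expression was computed as 25 minus Ct with Python 3.11.15, numpy 2.4.6, pandas 2.3.3 and scipy 1.17.1, and figures with matplotlib 3.10.9. A difference of means was split as share difference times mean level plus level difference times mean share, a step checked on simulated data. Precision is limited by 6 cells per stage and by the detection limit. Assays with a difference of at least 1 cycle, or with detection differing by at least 3 of 6 cells, and the markers Tnni3-2, Cnn1, Sm22A, Kit-2, Gata4-2 and Actb were named with values, and the others were described by range or list. Hcn4, Flk-1, Vim, Sox2, Cnn2 and Mef2C-1 were named after their values were seen. Members and lists were chosen with earlier results of these data known. All 33 gene names matched RefSeq (GRCm38.p6). Calponin 1 and 2 were read as Cnn1 and Cnn2, and Sm22A, a synonym of Tagln and Tagln2, as Tagln. Promoter windows were found for 21 of the genes. Alternatives were a stricter limit, centring, detecting cells only, medians over cells, a filter on cells, 1 value per gene and leaving out cells. Centring set undetected readings to the lowest centred value among the cells used.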

Additional observations from a re-analysis of the deposited data

Results flagged for a closer look

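Of 70 stage groups of 6 cells with any spread, 6 held 1 cell far from the rest by Dixon's criterion at 95%. For normally distributed values chance alone passes it in about 1 of 20 groups, a rate that does not hold with readings at 0. In 3 of the 6 groups only 1 cell detected the assay, which gives a flag whatever its level. In 1 more, a single undetected cell was the far one. At E9.5, Pdgfra read 4.83 cycles in cell 1 and 0 in the other 5. Kit-2 read 5.70 cycles in E9.5 cell 2, against 3.83 in the next cell. Tnni3-1 read 7.74 cycles in E9.5 cell 3, the lowest of its stage, with 9.33 in the next cell, and the same cell had the lowest Tnni3-2. Vcam1 read 0 in E9.5 cell 3 and at least 5.14 in the other 5. At E8.5, Vwf, the clotting factor stored by endothelial cells, read 5.71 cycles in cell 2, which also detected Cdh5, and 0 in the other 5. Isl1-2 read 3.59 cycles in E8.5 cell 6 and 0 in the others.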

How the results depend on the processing

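No paired analysis was possible because the result comes from no test and cells carry no shared replicate label. Counts of higher and lower assays were 23 and 7. They were 22 and 7 with the stricter detection limit, 13 and 4 of 26 assays over detecting cells only, 28 and 4 centred on Actb, and 22 and 8 centred on the median detected assay. Without the 2 Cdh5-detecting E8.5 cells, the same 2 that the filter on cells removed, they were 16 and 6; Actb centring then gave 28 and 2, and median centring 13 and 11. Leaving out each cell in turn gave 22 to 25 higher and 6 to 8 lower. Called assays led by detection numbered 22, 18 to 25 with each cell left out, and 11 without those 2 cells. The median assay moved by 1.95 cycles under Actb centring and by -0.82 under median centring, and without the 2 cells by -1.50 unscaled, 0.24 on Actb and -1.93 on the median. Signs turned for Kit-1 (0.52 on Actb, 1.02 without the 2 cells, then 1.52 on Actb and 0.84 on the median), Fn1 (0.98 on Actb, 1.5 also without the 2 cells), Myh7-2 (-1.19 over detecting cells or without the 2 cells, -0.30 as medians, -2.17 without them on the median), Myh7-1 (-0.25 and, on the median, -1.23) and Vcam1 (-0.0090 and -0.89). On the median without the 2 cells, Tbx5 read -0.30, Nkx2.5-2 -0.47, Nkx2.5-1 -0.95, Hand2 -0.39, Actn2 -0.80 and Tnnt2-1 -0.46. The cause was not tested. With 1 cell left out, the 30 assays named by rule kept their direction and moved by less than the spread between cells, but 4 of them (Kit-1, Myh7-2, Myh11 and Fn1) came under 1 cycle in at least 1 case. Flk-1, Hcn4 and Sox2, named later, changed sign. A reading of 0 means below the detection limit. The size of a difference is therefore a lower limit where every cell of the higher stage detected the assay and at least 1 cell of the other did not. Kit-2, Tnni3-2 and Pou5f1 are such assays with all cells. Where both stages hold undetected cells, it is no bound.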
